A study of Homo sapiens with 6 samples.

Results

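The vacuolar ATPase (V-ATPase), the ion channels and exchangers that work beside it in the lysosomal membrane, and the Ragulator-Rag complex were followed at the RNA level in U937 cells exposed to ethacrynic acid. The 37 genes were chosen by name as known subunits and partners of these complexes, with earlier results of these data known. They were read from a table of 61806 gene IDs. They comprise 9 genes of the membrane sector V0, 8 of the cytosolic sector V1, 2 accessory proteins, 9 channels, exchangers and their partners, 5 Ragulator subunits and 4 Rag GTPases. All 37 passed the filter on low counts, among 19611 genes tested. U937, the only line used, is a human monocyte-like leukaemia line, listed under AML in the labels. There were 3 libraries from cells given ethacrynic acid, a thiol-reactive loop diuretic, and 3 from cells given the vehicle DMSO, called control. The titles place all 6 libraries at day 3 and the treatment note speaks of 2 days, no label used here gives a dose, and no label says that replicates were separate cultures. A p-value here therefore reflects differences among 6 libraries that could be purely technical.

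The V-ATPase pumps protons into lysosomes, endosomes and secretory granules. Its V1 sector hydrolyses ATP and turns a central shaft, which turns a ring of proteolipids in the V0 sector and carries protons across the membrane. Chloride-proton exchangers balance the charge, cation channels release calcium, sodium or potassium, and the pump together with Ragulator and the Rag GTPases reports the supply of amino acids to the kinase complex mTORC1 on the lysosomal surface. In macrophages the same machinery acidifies phagosomes and lysosomes for digestion. Many of these genes carry CLEAR elements, the sites bound by the transcription factors TFEB, TFE3 and MITF.

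Ethacrynic acid libraries held 57516146 to 66677543 counts and control libraries 66907158 to 68128543 counts (exact two-sided permutation p = 0.1, the smallest that 3 against 3 allows). CPM below are counts per 1e6 of the TMM-scaled library. On the first principal component of the log2 values, ethacrynic acid replicate 3 lay at 93.9, against -36.9 to -10.4 for the other 5 libraries. Epithelial markers (EPCAM, KRT8, KRT18 and CDH1) summed to 33.6, 40.1 and 367 CPM in the ethacrynic acid libraries, against 25.4 to 40.1 CPM in the control libraries, and the high value was that of replicate 3. The markers of a monocytic line (CD33, SPI1, LYZ, CD68, MPO, CSF3R and PTPRC) were all detected and summed to between 1162 and 1656 CPM with ethacrynic acid and between 872 and 1012 CPM in the control. T cell, B cell and fibroblast markers summed to at most 8.86 CPM in any library, and of the erythroid markers HBB and HBA1 were at 0 counts in all 6. The 7 monocytic markers did not move together: LYZ, CD68 and SPI1 had positive log2 fold changes of 1.64, 1.03 and 0.37, and CD33, CSF3R, MPO and PTPRC negative ones of -0.08, -0.16, -0.41 and -0.50. None of them passed in edgeR (adjusted p of 0.059 to 0.76), and LYZ made up much of the sum, at 656 ± 202 CPM with ethacrynic acid and 211 ± 80.8 CPM in the control (SD, n = 3 each). The part of these markers in the results below was not tested.

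The shares below describe a list that was chosen with earlier results of these data known. As a group the 37 genes were somewhat higher with ethacrynic acid. A positive log2 fold change was found for 32 of them (86.5%), against 49.9% of all genes tested, and the median was 0.25, against 0.00 over all genes tested. In 16 genes (43.2%) every ethacrynic acid library lay above every control library, against 8.64% of all genes tested. In no member did every ethacrynic acid library lie below every control library, against 8.99% of all genes tested. At an unadjusted p under 0.05, 15 members (40.5%) were higher and none was lower, against 6.54% and 4.6% of all genes. After Benjamini-Hochberg adjustment over all genes in edgeR's quasi-likelihood test, only ATP6V0D2 passed at 0.05, that is 2.7% of the members against 0.229% of all genes called higher and 0.0357% called lower. DESeq2 called ATP6V0D2, ATP6V0E1 and ATP6V1F as higher and no member as lower (8.11%, against 1.88% of all genes called higher and 0.903% called lower). In edgeR without ethacrynic acid replicate 3, ATP6V0D2 and ATP6V0E1 were called higher and none lower (5.41%, against 0.592% of all genes called higher and 0.138% called lower). These are bulk measurements, so a change in RNA per cell and a change in the mix of cells cannot be told apart.

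The shift was present in each ethacrynic acid library but differed in size between them. The members' median log2 ratio to the control mean was 0.33, 0.22 and 0.15 in ethacrynic acid replicates 1, 2 and 3, against 0.04, 0.00 and -0.04 in control replicates 1, 2 and 3. Replicate 1 had the highest value of the ethacrynic acid libraries for 26 members and replicate 3 the lowest for 21. The number of members higher at an unadjusted p under 0.05 was 14 without ethacrynic acid replicate 1 (37.8%, against 7.76% of all genes), 13 without replicate 2 (35.1%, against 6.33%) and 17 without replicate 3 (45.9%, against 8.13%). It was 15 without control replicate 1 (40.5%, against 4.27%), 8 without control replicate 2 (21.6%, against 4.14%) and 8 without control replicate 3 (21.6%, against 3.36%).

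**Figure D1:**
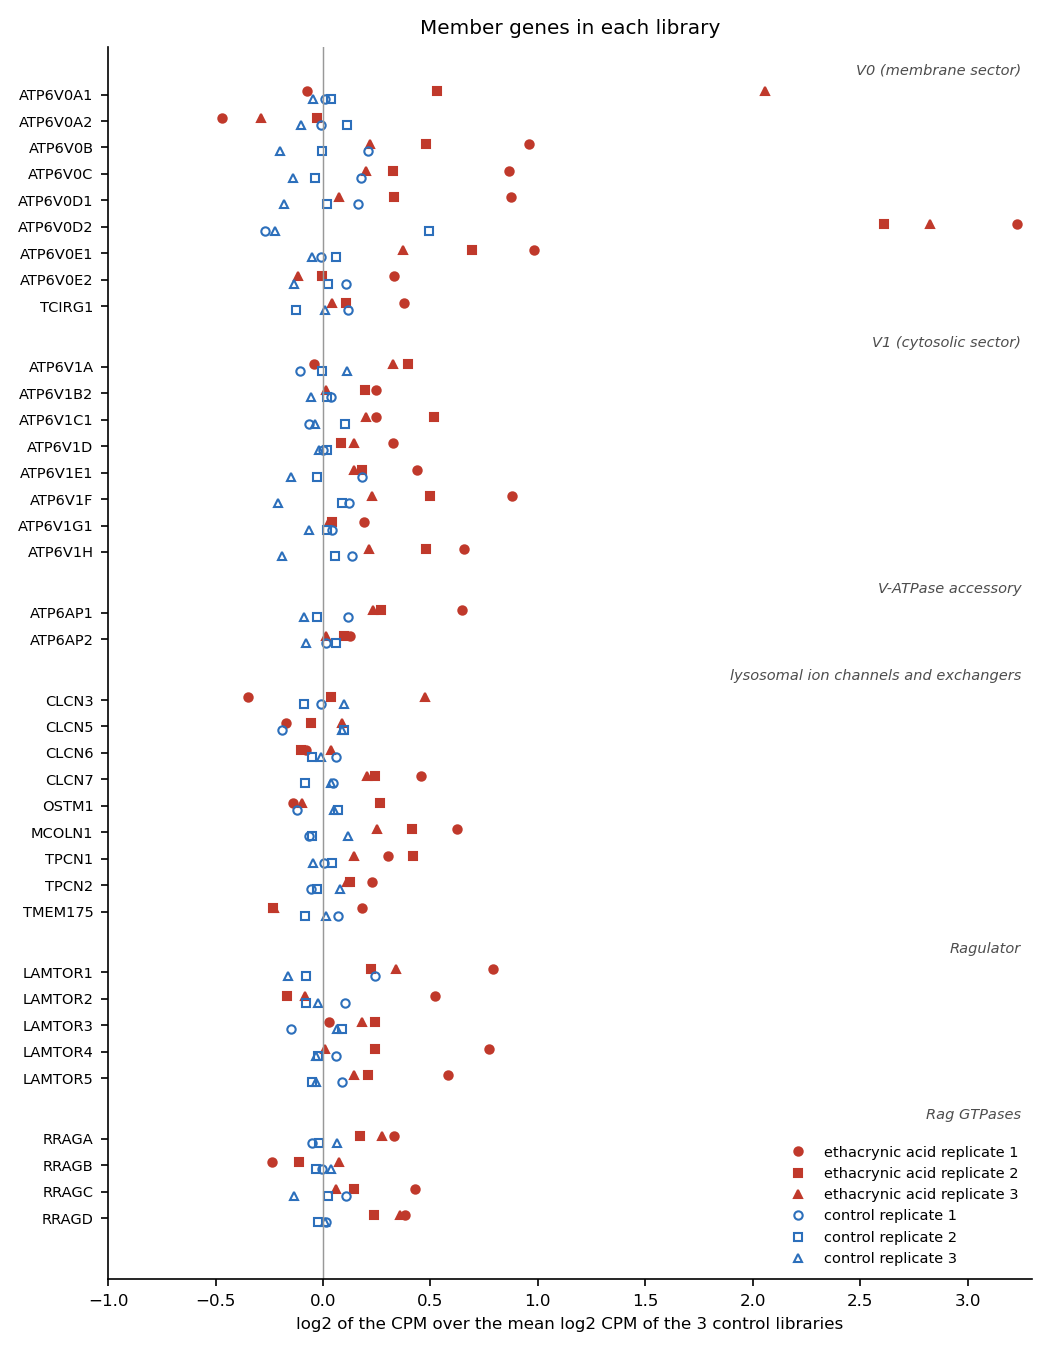
Level of each of the 37 genes in each library, as the log2 of its CPM over the mean log2 CPM of the 3 control libraries (horizontal axis), grouped by part of the machinery; filled red symbols are ethacrynic acid libraries and open blue symbols control libraries. Most red symbols lie right of 0, ATP6V0D2 lies farthest right, and ATP6V0A1 is far right only in ethacrynic acid replicate 3.

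**Figure D2:**
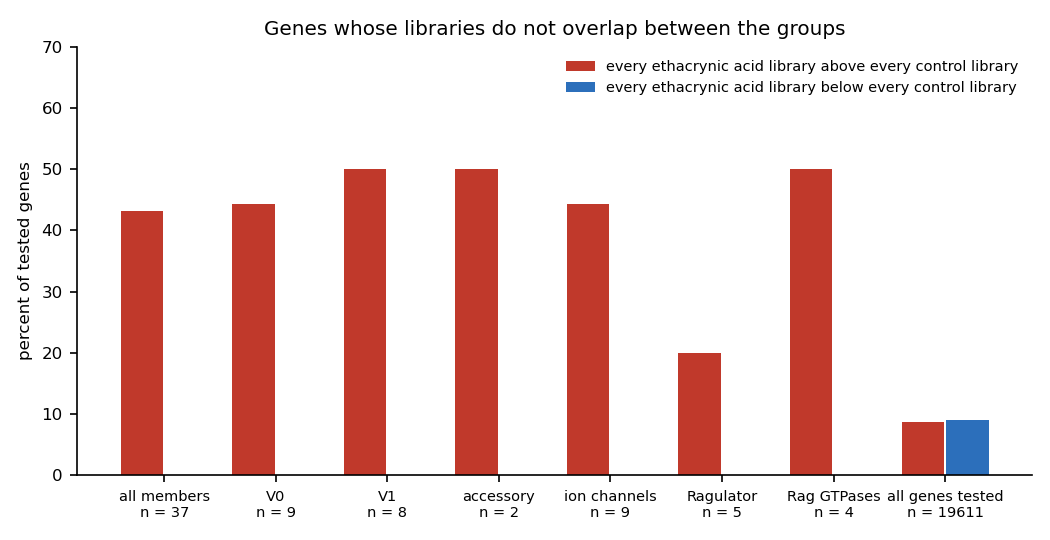
Percent of tested genes whose libraries do not overlap between the groups, by part and for all 19611 genes tested; red bars are genes with every ethacrynic acid library above every control library and blue bars the opposite. All members together stand at 43.2% against 8.64% of all genes, and the parts have no blue bar.

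Promoter sequences of 29 of the 37 genes were found in a RefSeq table (GRCh38.p14), from 250 bases before to 50 after the start. No entry was used for ATP6V0D2, ATP6V0E1, ATP6V1A, ATP6V1B2, ATP6V1C1, ATP6V1H, RRAGA or RRAGD. They were searched on both strands for the letters TCACGTGA, for the full CLEAR element, which is these letters with a G before and a C after, for the E-box CACGTG contained in both, and the core TGACNNNGC of the antioxidant response element, the site of NRF2. The CLEAR element was found in 3 of the 29 (10.3%), against 0.381% of 27305 promoters of the same length and 0.749% of the 12276 among them that belong to tested genes. The 8 inner letters were found in 5 (17.2%, against 1.04% and 1.79%) and the E-box in 11 (37.9%, against 7.43% and 9.93%). The antioxidant response element core was found in 7 (24.1%, against 13.6% and 15.1%).

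The windows with the full CLEAR element and that of ATP6V1F are shown to set the 3 genes with these letters beside 1 with a low p and none of them, and thus to make the letters visible. All are on the plus strand, 5' to 3', with the matches to any of the 4 motifs in capitals. They lie at chr19:7522374-7522673 (MCOLN1), chr9:114587519-114587818 (ATP6V1G1), chrX:55717499-55717798 (RRAGB) and chr7:128862606-128862905 (ATP6V1F).
MCOLN1: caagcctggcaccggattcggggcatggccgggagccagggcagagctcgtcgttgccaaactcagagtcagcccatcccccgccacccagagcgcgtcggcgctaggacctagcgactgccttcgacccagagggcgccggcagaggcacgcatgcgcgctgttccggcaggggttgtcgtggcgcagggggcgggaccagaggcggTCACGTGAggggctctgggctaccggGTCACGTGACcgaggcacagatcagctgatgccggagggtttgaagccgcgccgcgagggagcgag
ATP6V1G1: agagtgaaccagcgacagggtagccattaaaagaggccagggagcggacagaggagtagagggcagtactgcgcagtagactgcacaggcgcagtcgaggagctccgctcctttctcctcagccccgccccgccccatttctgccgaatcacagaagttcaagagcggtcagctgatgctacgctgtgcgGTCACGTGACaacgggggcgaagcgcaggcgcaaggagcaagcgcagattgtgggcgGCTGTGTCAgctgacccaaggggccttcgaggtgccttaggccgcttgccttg
RRAGB: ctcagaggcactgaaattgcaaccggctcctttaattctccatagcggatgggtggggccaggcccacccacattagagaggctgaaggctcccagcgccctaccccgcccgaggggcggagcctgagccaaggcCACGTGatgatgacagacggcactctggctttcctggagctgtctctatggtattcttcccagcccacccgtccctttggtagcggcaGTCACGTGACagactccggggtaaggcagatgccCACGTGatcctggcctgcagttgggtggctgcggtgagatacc
ATP6V1F: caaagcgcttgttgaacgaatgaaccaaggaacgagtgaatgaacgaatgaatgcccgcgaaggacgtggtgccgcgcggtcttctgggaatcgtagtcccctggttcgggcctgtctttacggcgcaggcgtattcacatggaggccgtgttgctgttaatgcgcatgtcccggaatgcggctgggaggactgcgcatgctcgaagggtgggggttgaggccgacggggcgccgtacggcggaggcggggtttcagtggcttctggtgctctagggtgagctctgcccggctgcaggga

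The other 2 genes with the inner letters are shown as stretches of 30 bases, at chr16:67481199-67481228 on the minus strand (ATP6V0D1) and chr1:11806182-11806211 on the plus strand (CLCN6), with these letters in capitals.
ATP6V0D1: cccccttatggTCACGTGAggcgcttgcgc
CLCN6: cccggggccagTCACGTGAggcgcagatcc

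The window of MCOLN1 held the full element at -16 and a second copy of the inner letters at -42 from the start, and that of ATP6V1F held none of the 4 motifs. The genes with these letters had values on both sides of 0. Of the 5 genes with the inner letters, MCOLN1 and ATP6V0D1 had log2 fold changes of 0.44 and 0.46, while ATP6V1G1, CLCN6 and RRAGB had 0.09, -0.05 and -0.09. A match describes letters in the window and not a bound site.

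Of the 9 genes of the V0 sector 8 were positive, and the median log2 fold change was 0.49, or 0.27 without ethacrynic acid replicate 1. ATP6V0D2 (ENSG00000147614, chromosome 8, 85987323 to 86154228 on GRCh38) encodes d2, a form of the subunit that couples the proteolipid ring to the shaft, best known from osteoclasts and, in mouse, from macrophages. It was counted 112, 67 and 89 times in the ethacrynic acid libraries, against 11, 19 and 12 times in the control libraries. That is 1.83, 1.19 and 1.38 CPM with ethacrynic acid, against 0.162, 0.275 and 0.167 CPM in the control, and the groups were far apart. ATP6V0D2 rose 7.24-fold (log2 fold change 2.86 ± 0.39 SE, edgeR adjusted p = 0.041; DESeq2 adjusted p = 6.73e-06). The edgeR call held without ethacrynic acid replicate 3 (adjusted p = 0.025). It was lost without each of the other 5 libraries in turn (adjusted p of 0.088 to 0.273) and with limma-voom (adjusted p = 0.069), while the log2 fold change stayed between 2.67 and 3.14. The sum of other osteoclast markers was not higher with it. ACP5, CTSK, OCSTAMP, DCSTAMP and CALCR summed to 14.0 to 17.3 CPM with ethacrynic acid and 17.4 to 22.5 CPM in the control. Over all libraries DCSTAMP had 4512 counts and CTSK 1751, against 578 for ACP5, 26 for OCSTAMP and 0 for CALCR. The sum therefore follows mainly DCSTAMP and CTSK and says little about ACP5 and OCSTAMP.

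ATP6V0D1, the d1 form found in most cells, remained the main d transcript. It was at 72.5 ± 21.1 CPM with ethacrynic acid and 52.7 ± 6.21 CPM in the control (SD, n = 3 each; log2 fold change 0.46 ± 0.20 SE, edgeR adjusted p = 0.45, and 0.21 without ethacrynic acid replicate 1). Per kilobase of exon, ATP6V0D2 made up 4.95%, 4.69% and 6.39% of the d transcripts in the ethacrynic acid libraries, against 0.746%, 1.40% and 0.975% in the control libraries. With the longest coding transcript as the length its mean share was 1.43% with ethacrynic acid and 0.269% in the control, so the size of the share depends on the length used.

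ATP6V0E1 encodes the small membrane subunit e1, which is needed for assembly of V0. It was at 83.7, 68.3 and 54.7 CPM in the ethacrynic acid libraries, against 42.1, 44.1 and 40.8 CPM in the control libraries. All ethacrynic acid libraries were above all control libraries, with a log2 fold change of 0.70 ± 0.15 SE that did not pass in edgeR (adjusted p = 0.17). It passed with DESeq2 (adjusted p = 0.0016) and in edgeR without ethacrynic acid replicate 3 (adjusted p = 0.020). Its paralog ATP6V0E2 was at 58.3 ± 9.74 CPM with ethacrynic acid and 55.1 ± 4.66 CPM in the control (SD, n = 3 each; log2 fold change 0.08 ± 0.13 SE), and that value was -0.01 under total count scaling and -0.06 without ethacrynic acid replicate 1. Per kilobase of exon, ATP6V0E1 made up 81.8% to 83.8% of the e transcripts with ethacrynic acid and 74.7% to 77.2% in the control, and these ranges did not overlap.

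The proteolipid ring is built from the products of ATP6V0C and ATP6V0B, which carry the protons. ATP6V0B was at 355, 255 and 213 CPM with ethacrynic acid, against 211, 182 and 159 CPM in the control (log2 fold change 0.58 ± 0.19 SE, edgeR adjusted p = 0.37). ATP6V0C was at 156, 107 and 98.5 CPM with ethacrynic acid, against 96.7, 83.4 and 77.8 CPM in the control (0.49 ± 0.18, adjusted p = 0.40). In both genes the lowest ethacrynic acid library lay just above the highest control library, and ethacrynic acid replicate 1 was well above the rest. Without that library the log2 fold change was 0.35 for ATP6V0B and 0.27 for ATP6V0C. Neither passed in either of edgeR and DESeq2.

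The a subunit holds the path of the protons through the membrane and directs the pump to its compartment. TCIRG1, the a3 form of lysosomes and osteoclasts, was the main a transcript per kilobase of exon, at 88.5% to 92.7% with ethacrynic acid and 85.7% to 88.5% in the control. It was at 126 ± 16.1 CPM with ethacrynic acid and 112 ± 9.37 CPM in the control (SD, n = 3 each; log2 fold change 0.18 ± 0.12 SE, edgeR adjusted p = 0.59). ATP6V0A2, the a2 form of the Golgi and endosomes, was the only V0 gene with a negative value, at 34.9, 47.3 and 39.5 CPM with ethacrynic acid, against 47.9, 52.2 and 44.9 CPM in the control (-0.25 ± 0.13, adjusted p = 0.51). Its groups overlapped.

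ATP6V0A1, the a1 form known from neurons, had the second highest log2 fold change of the members, 1.13 ± 0.53 SE (edgeR adjusted p = 0.48), and it rested on 1 library. It was at 0.819, 1.25 and 3.59 CPM with ethacrynic acid, against 0.868, 0.883 and 0.836 CPM in the control. The high value was that of ethacrynic acid replicate 3, the library with 367 CPM of epithelial markers, and without it the log2 fold change was 0.25. The part of those markers in the value was not tested.

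**Figure D3:**
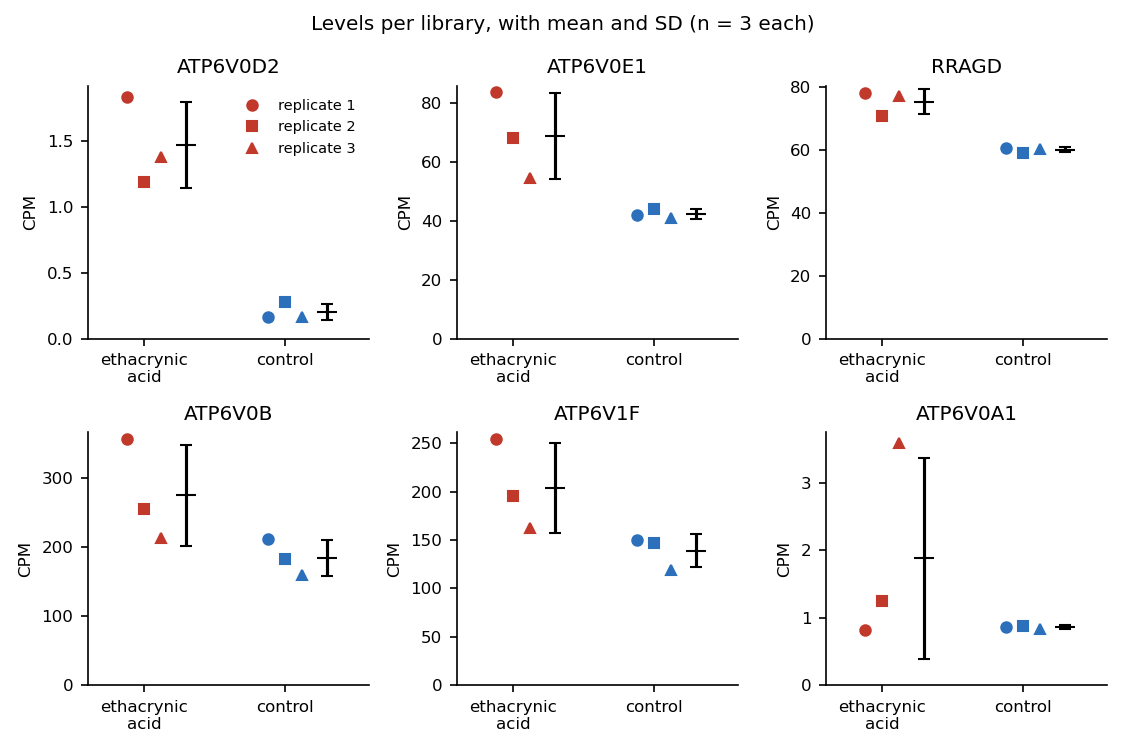
CPM of 6 genes in each library (symbols), with the mean and SD of 3 libraries a group (black), ethacrynic acid in red and control in blue; all vertical axes start at 0. ATP6V0D2, ATP6V0E1 and RRAGD are separated between the groups, ATP6V0B and ATP6V1F nearly touch, and ATP6V0A1 is high only in ethacrynic acid replicate 3.

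In the V1 sector all 8 member genes had positive log2 fold changes, between 0.09 and 0.55 with a median of 0.25, and none passed in edgeR. At an unadjusted p under 0.05, 3 of 8 were higher and none lower, against 6.54% and 4.6% of all genes. DESeq2 called 1 of 8, ATP6V1F, against 1.88% of all genes called higher. V1 genes listed apart as tissue-restricted paralogs went the other way: ATP6V1C2, ATP6V1E2 and ATP6V1G2 had -0.55, -0.22 and -0.75, and none passed in edgeR. ATP6V1B1 and ATP6V1G3 were not tested. In the control ATP6V1E2 was at 14.5 CPM, against 0.201 and 0.862 CPM for the V0 members ATP6V0D2 and ATP6V0A1. ATP6V1F encodes subunit F of the rotating shaft. It was at 254, 195 and 162 CPM with ethacrynic acid, against 150, 147 and 119 CPM in the control (0.55 ± 0.17 SE, edgeR adjusted p = 0.34; DESeq2 adjusted p = 0.048). ATP6V1H, which regulates the coupling of ATP hydrolysis to rotation, was at 88.6, 78.4 and 65.2 CPM with ethacrynic acid, against 61.8, 58.4 and 49.2 CPM in the control (0.45 ± 0.14, edgeR adjusted p = 0.32). ATP6V1C1, which joins V1 to V0 and is released when the sectors separate, was at 96.8, 117 and 93.7 CPM with ethacrynic acid, against 77.9, 87.6 and 79.5 CPM in the control (0.33 ± 0.11, edgeR adjusted p = 0.37).

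These 3 genes and ATP6V1D, the other shaft subunit, had groups that did not overlap, that is 50% of the V1 genes against 8.64% of all genes. The groups of both subunits of the catalytic head overlapped. ATP6V1A, which holds the catalytic sites, was at 83.7 ± 13.0 CPM with ethacrynic acid and 71.1 ± 5.33 CPM in the control (SD, n = 3 each), and ATP6V1B2, its partner in the head, at 208 ± 17.4 CPM with ethacrynic acid and 187 ± 6.26 CPM in the control. Of the outer stalks, ATP6V1E1 had a log2 fold change of 0.25 ± 0.12 SE and ATP6V1G1 of 0.09 ± 0.09.

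Of the accessory proteins, ATP6AP1 (also called Ac45), which takes part in assembly of V0, was at 522, 401 and 391 CPM with ethacrynic acid, against 361, 327 and 313 CPM in the control (log2 fold change 0.39 ± 0.13 SE, edgeR adjusted p = 0.37, and 0.26 without ethacrynic acid replicate 1). Its groups did not overlap. ATP6AP2, the prorenin receptor, was at 172 ± 6.83 CPM with ethacrynic acid and 163 ± 8.01 CPM in the control (SD, n = 3 each; 0.08 ± 0.08), and its groups overlapped. Its value was -0.0017 under total count scaling. Neither was called by DESeq2.

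The 9 genes of channels and exchangers were mixed, with 6 positive and 3 negative log2 fold changes and a median of 0.09. None passed in edgeR or DESeq2. At an unadjusted p under 0.05, 3 of 9 were higher and none lower, against 6.54% and 4.6% of all genes. CLCN7, the chloride-proton exchanger of lysosomes, was at 494, 425 and 414 CPM with ethacrynic acid, against 371, 339 and 369 CPM in the control (0.30 ± 0.10 SE, edgeR adjusted p = 0.37). OSTM1, the subunit that stabilises it, was at 23.9 ± 3.80 CPM with ethacrynic acid and 23.6 ± 1.70 CPM in the control (SD, n = 3 each; 0.02 ± 0.14), with -0.06 under total count scaling and -0.12 without ethacrynic acid replicate 2. CLCN7 and its partner thus differed in whether their groups overlapped, although the difference between these 2 genes was not tested.

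Among the cation channels, MCOLN1, the calcium release channel of lysosomes, was at 19.4, 16.8 and 14.98 CPM with ethacrynic acid, against 12.02, 12.2 and 13.6 CPM in the control (0.44 ± 0.14 SE, edgeR adjusted p = 0.34). TPCN1, a sodium and calcium channel of endosomes and lysosomes, was at 121, 131 and 108 CPM with ethacrynic acid, against 98.4, 101 and 94.7 CPM in the control (0.29 ± 0.10, adjusted p = 0.36). TPCN2, its lysosomal relative, was at 45.5, 42.4 and 41.9 CPM with ethacrynic acid, against 37.4, 38.1 and 41.0 CPM in the control (0.16 ± 0.09, adjusted p = 0.56). These 3 channels and CLCN7 had groups that did not overlap, that is 4 of the 9 genes of this part (44.4%), against 8.64% of all genes. TMEM175, the potassium and proton channel of lysosomes, was at 27.1 ± 4.67 CPM with ethacrynic acid and 28.7 ± 1.53 CPM in the control (SD, n = 3 each; -0.08 ± 0.14), and its groups overlapped.

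The endosomal exchangers CLCN3, CLCN5 and CLCN6 had log2 fold changes of 0.09, -0.05 and -0.05, with overlapping groups. That of CLCN3 was -0.15 without ethacrynic acid replicate 3 and 0.28 without ethacrynic acid replicate 1. That of CLCN5 was 0.02 without ethacrynic acid replicate 1.

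Ragulator anchors the Rag GTPases on the lysosome. Its 5 genes had positive log2 fold changes with a median of 0.32, and none passed in edgeR or DESeq2. At an unadjusted p under 0.05, 2 of 5 were higher and none lower, against 6.54% and 4.6% of all genes. LAMTOR1, whose lipid tail anchors the complex, was at 66.8, 45.1 and 48.8 CPM with ethacrynic acid, against 45.6, 36.6 and 34.5 CPM in the control (0.46 ± 0.17 SE, edgeR adjusted p = 0.41), and ethacrynic acid replicate 2 lay just below control replicate 1. LAMTOR5 was at 64.8, 50.1 and 47.9 CPM with ethacrynic acid, against 46.1, 41.8 and 42.3 CPM in the control (0.32 ± 0.13, adjusted p = 0.43), the only Ragulator gene without overlap. LAMTOR4, which pairs with LAMTOR5, was at 67.3 ± 18.9 CPM with ethacrynic acid and 51.9 ± 1.87 CPM in the control (SD, n = 3 each; 0.38 ± 0.18). Without ethacrynic acid replicate 1 the log2 fold changes of LAMTOR1, LAMTOR4 and LAMTOR5 were 0.28, 0.14 and 0.18. LAMTOR2 and LAMTOR3, the pair that also binds the kinase MEK1, had 0.12 ± 0.18 and 0.15 ± 0.12, and the value of LAMTOR2 was -0.12 without ethacrynic acid replicate 1. The Ragulator median was 0.18 without that library.

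The Rag GTPases act as pairs of RagA or RagB with RagC or RagD. RRAGD, which encodes RagD (ENSG00000025039, chromosome 6, 89364636 to 89412270), was at 78.2, 70.8 and 77.0 CPM with ethacrynic acid, against 60.7, 59.1 and 60.4 CPM in the control. Its groups were clearly apart, and its log2 fold change of 0.33 ± 0.08 SE had the third smallest p among the members but did not pass in edgeR (adjusted p = 0.22) or DESeq2 (adjusted p = 0.085). It lay between 0.30 and 0.37 over the fits that leave out 1 library, a narrower range than that of 0.35 to 0.72 for ATP6V0B. RRAGA was at 27.6, 24.8 and 26.5 CPM with ethacrynic acid, against 21.2, 21.7 and 23.0 CPM in the control (0.26 ± 0.10, edgeR adjusted p = 0.42), without overlap. RRAGC was at 66.6 ± 9.05 CPM with ethacrynic acid and 57.3 ± 4.85 CPM in the control (SD, n = 3 each; 0.22 ± 0.12). RRAGB was at 11.03 ± 1.21 CPM with ethacrynic acid and 11.7 ± 0.294 CPM in the control (-0.09 ± 0.13), so that RRAGA made up 78.7% to 82.7% of the pair per kilobase of exon with ethacrynic acid and 75.7% to 76.6% in the control.

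**Figure D4:**
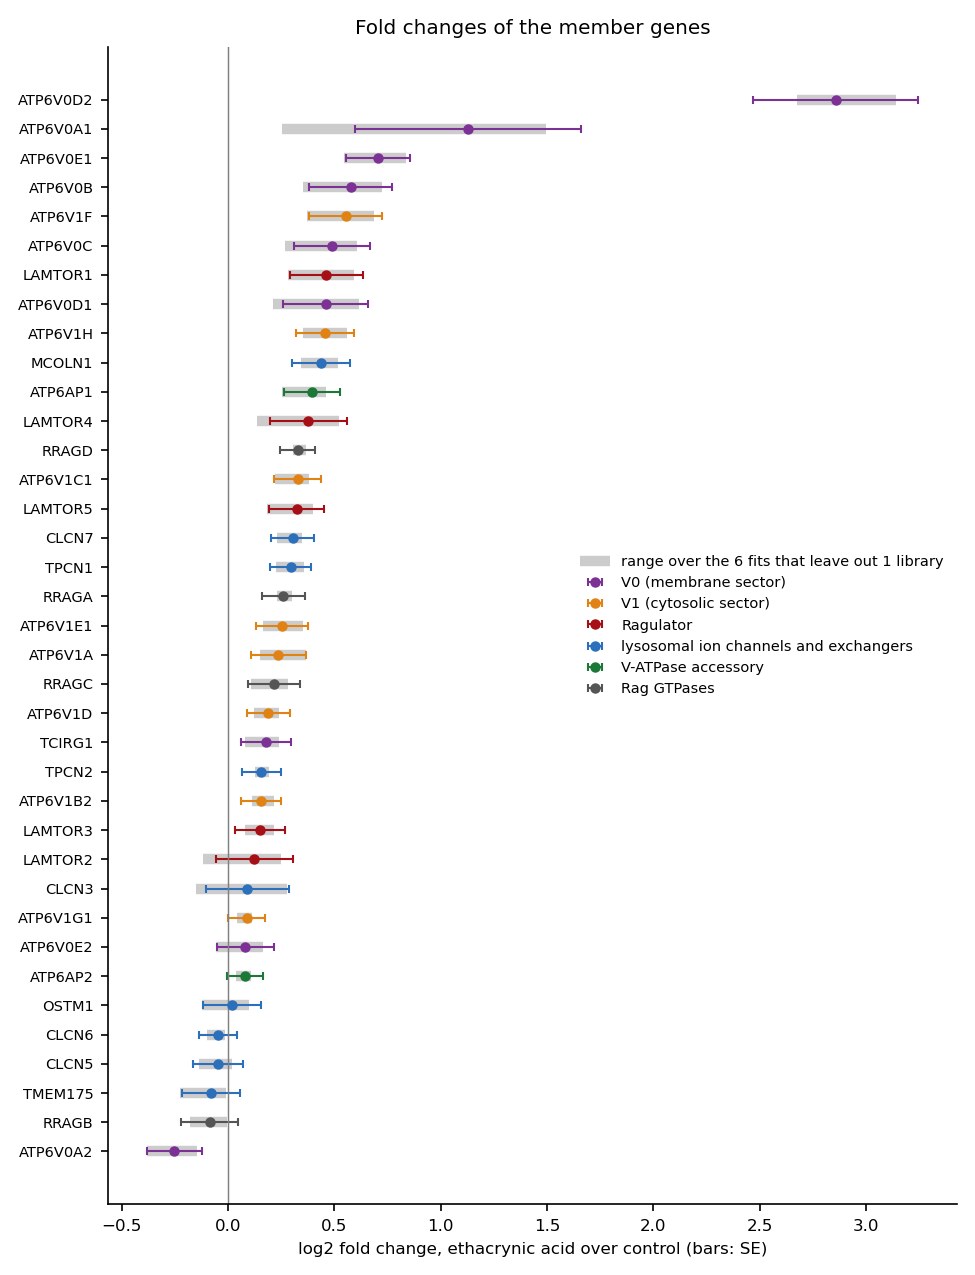
Log2 fold change (ethacrynic acid over control) of each of the 37 genes in order of size, with SE (coloured by part) and the range over the 6 fits that leave out 1 library (grey). ATP6V0D2 stands alone at 2.86, most others lie between 0 and 0.7, and the grey range of ATP6V0A1 is the widest.

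The order of the members' levels was nearly the same in both groups (Spearman's rho of 0.99 across the 37 genes, which share libraries and are not replicates). Per kilobase of exon, ATP6V1F was the most abundant, at 258 ± 59.2 CPM per kilobase with ethacrynic acid and 176 ± 21.6 in the control (SD, n = 3 each). ATP6AP1 followed with 89.7 ± 14.9 with ethacrynic acid and 68.3 ± 5.05 in the control. The proteolipid genes came next. ATP6V0C had 80.5 ± 20.6 with ethacrynic acid and 57.4 ± 6.47 in the control, and ATP6V0B 77.6 ± 20.7 with ethacrynic acid and 52.1 ± 7.38 in the control. The order of these 3 genes depended on the length used. By the longest coding transcript ATP6V0B had 163 ± 43.5 with ethacrynic acid, ATP6AP1 155 ± 25.8 and ATP6V0C 103 ± 26.3. Differences between these genes were not tested. CLCN7, at 54.7 ± 5.32 with ethacrynic acid and 44.3 ± 2.21 in the control, was the highest of the channels, far above its partner OSTM1 at 4.49 ± 0.714 with ethacrynic acid and 4.43 ± 0.319 in the control. Rarest were ATP6V0D2 at 0.488 ± 0.109 with ethacrynic acid and 0.0669 ± 0.0212 in the control, and ATP6V0A1 at 0.172 ± 0.136 with ethacrynic acid and 0.0787 ± 0.00220 in the control.

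The values of several libraries moved with transcript length. Spearman's rho between length and the log2 ratio to the control mean, a description across 13873 tested genes that share a library, was -0.41, -0.06 and 0.09 in ethacrynic acid replicates 1, 2 and 3, against -0.35, 0.14 and 0.20 in control replicates 1, 2 and 3. Across the 37 members it was -0.63, -0.07 and 0.05 in the ethacrynic acid libraries, against -0.54, 0.23 and 0.42 in the control libraries. Short genes were thus relatively high in replicate 1 of both groups, while the differences were larger in that of ethacrynic acid. The members' median log2 fold change was 0.35 for a longest coding transcript under 2000 bases, 0.18 for lengths from 2000 to under 4000 bases and 0.19 for 4000 bases or more, against 0.10, 0.03 and -0.05 for all tested genes of these lengths. In ethacrynic acid replicate 1, tested genes with a longest coding transcript under 2000 bases had a median log2 ratio to the control mean of 0.28, and those of 4000 bases or more one of -0.19. Members of these lengths had 0.67 and -0.05 in that library. In control replicate 1 the same medians were 0.08 and -0.06 for all tested genes and 0.10 and -0.0094 for members. In ethacrynic acid replicates 2 and 3 the short members had 0.22 and 0.15 and the long members 0.24 and 0.19, so short and long members had similar values there. Members from 2000 to under 4000 bases had lower values in these libraries, 0.15 and 0.07. Over all libraries, 7 of the 14 short members were higher at an unadjusted p under 0.05 (50%, against 10.9% of all genes of that length). For lengths from 2000 to under 4000 bases it was 4 of 11 (36.4%, against 8.63%) and for 4000 bases or more 4 of 12 (33.3%, against 6.06%).

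**Figure D5:**
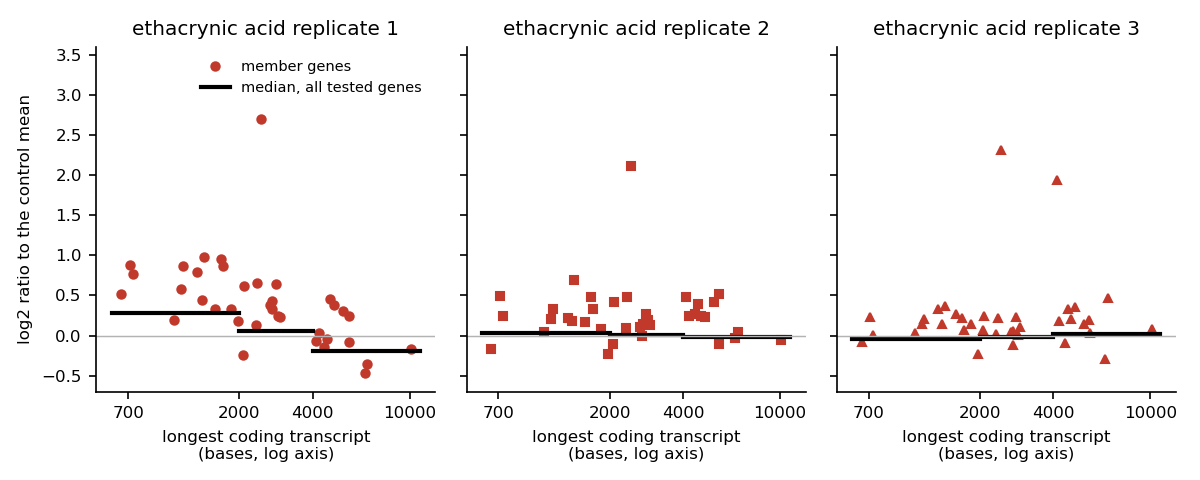
Log2 ratio to the control mean (vertical axis) of the 37 genes in each ethacrynic acid library against the length of the longest coding transcript (log axis); black lines are medians of all tested genes in 3 classes of length, with 0.1 CPM added before the log. In replicate 1 both the members and all genes slope downwards with length, from medians of 0.28 to -0.19 for all genes, while in replicates 2 and 3 the lines are nearly flat and most members lie above them.

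Genes that work with this machinery were read from lists of partners. Of 62 listed partners 59 were tested. None passed in edgeR or DESeq2, and their median log2 fold change was 0.02. At an unadjusted p under 0.05, 4 were higher (6.78%, against 6.54% of all genes) and 1 was lower (1.69%, against 4.6%), so the partners were near the background. Among the transcription factors of the CLEAR element, TFE3 was at 59.7, 59.9 and 51.9 CPM with ethacrynic acid, against 45.6, 44.2 and 38.9 CPM in the control (0.41 ± 0.10 SE, edgeR adjusted p = 0.22), without overlap. TFEC, a family member of macrophages, had 0.38 ± 0.18, while MITF had 0.05 ± 0.18. TFEB, named here after its value was seen, had 0.01 ± 0.19, at 66.5 ± 17.3 CPM with ethacrynic acid and 65.9 ± 8.81 CPM in the control (SD, n = 3 each).

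Among 12 genes of V-ATPase assembly and regulation, 7 were positive, with a median of 0.04. RNASEK, a small protein found with the pump, was at 89.6 ± 26.9 CPM with ethacrynic acid and 60.0 ± 4.66 CPM in the control (SD, n = 3 each; 0.58 ± 0.20 SE), and the assembly factor gene TMEM199 had 0.38 ± 0.14. OXR1 had 1.29 ± 0.53, at 0.950, 1.35 and 3.85 CPM with ethacrynic acid, against 0.809, 0.652 and 1.06 CPM in the control, and its high library was again ethacrynic acid replicate 3. Of 7 tissue-restricted paralogs 4 could be tested, and all 4 had negative values, among them ATP6V1G2 (-0.75 ± 0.30), ATP6AP1L (-0.44 ± 0.21) and ATP6V1E2 (-0.22 ± 0.15). The remaining value, that of ATP6V1C2, rested on control replicate 3.

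The 9 genes of mTORC1 and its regulators, activating and inhibiting alike, had a median log2 fold change of -0.06, with 3 positive and 6 negative. TSC1, which restrains mTORC1, had -0.19 ± 0.10 SE, its activator RHEB 0.14 ± 0.08 and the inhibitor DEPTOR -0.31 ± 0.22. The 22 regulators of the Rag GTPases had a median of 0.03, with 0.19 ± 0.10 for the GATOR gene DEPDC5, 0.14 ± 0.09 for the leucine sensor SESN2 and 0.87 ± 0.50 for FNIP1. FNIP1 was at 1.05, 1.10 and 3.14 CPM with ethacrynic acid, against 0.662, 0.970 and 1.27 CPM in the control, high in ethacrynic acid replicate 3 as well. The 8 subunits of BORC, which binds Ragulator and moves lysosomes, had a median of 0.21, with 0.33 ± 0.16 for BORCS6, 0.38 ± 0.21 for BLOC1S1 and 0.25 ± 0.15 for BORCS8. The smallest adjusted p of these 3 lists in edgeR was 0.50.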

How the data were processed

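RNA of U937 cells was sequenced in 3 ethacrynic acid and 3 control libraries, from TRIzol RNA and SMARTER mRNA-seq chemistry (per the labels). The authors deposited whole-number counts for 61806 Ensembl gene IDs, not scaled between libraries. GRCh38, edgeR, StringTie 1.3.4d, HISAT2 and fastp appear in the submitters' processing notes without a role or order. Which tool counted, the annotation release and the strand setting were not given in the sources used here. A count of 4 was over-frequent (1306 genes in control replicate 1, against 651 with a count of 3 and 412 with 5), so a read pair may be worth more than 1 count and depth overstates precision.

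The 37 members and all lists were chosen with earlier results of these data known. Symbols were matched for 61757 IDs, and coordinates and lengths are those of GENCODE 29. Genes were kept by filterByExpr (minimum count 10, total 15). Scaling used TMM, and edgeR 4.0.16 (R 4.3.3, with limma 3.58.1) gave the quasi-likelihood F-test, group as the only term, two-sided, with Benjamini-Hochberg adjustment over all genes and a call at 0.05. SE is the log2 fold change over the square root of F. The test was also run on simulated counts. The outcome is not given here, and it does not show how well the p-values hold for these libraries. DESeq2 1.42.0 was run on all genes with a count, with its own scaling. Named genes were all members and, of each list of partners, the 3 with the smallest p. ATP6V1C2 and TFEB fell outside this rule and were named after their values were seen. Promoters were to be those of called members, or else of the 4 with the smallest p, outside chromosome 8. The windows of ATP6V1G1, RRAGB, ATP6V0D1 and CLCN6 were added for their motifs after the search. Lengths over which members were split were chosen after seeing the data. Exons that overlap another counted gene make a value uncertain. On the opposite strand, where no strand setting is stated, this concerns ATP6V0E2, ATP6V1D, ATP6V1F, CLCN6, CLCN7, LAMTOR4 and LAMTOR5. Among the partners it concerns ATP6V1C2, ATP6V1E2, ATP6V1G2 and BORCS8, and the gene that ATP6V1C2 overlaps, PDIA6, had far more counts. On the same strand such overlap concerns ATP6V0C, TCIRG1 and TPCN2 and the partners RNASEK, FNIP1, ATP6V1G2, BLOC1S1 and BORCS8. Named pseudogenes of ATP6V0C, ATP6V0E1, ATP6V1E1, ATP6V1G1, CLCN3, LAMTOR3 and LAMTOR5 held at most 21 counts in all for any of these genes, and those of RHEB held 6884.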

Additional observations from a re-analysis of the deposited data

How the results depend on the processing

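The members' median log2 fold change lay between 0.17 (total count scaling) and 0.27 in every fit, and no member called in any fit changed sign. Over the fits that leave out 1 library the median was 0.21 to 0.27, the members called higher 0 to 2, and the genes called in all 4 to 120 higher and 0 to 28 lower. Members called higher numbered 0 without a filter, with a stricter filter (5 CPM in 3 libraries, which drops ATP6V0D2 and ATP6V0A1), with limma-voom, at an adjusted p under 0.01 and against a 1.5-fold change, and 3 with DESeq2. Among all genes 14 were called higher and 0 lower without a filter, 82 and 14 with the stricter filter, 342 and 164 with DESeq2, 9 and 0 at an adjusted p under 0.01, and 10 and 0 against a 1.5-fold change. Replicate numbers are not said to pair libraries, so the main test did not treat them as pairs. Same-numbered libraries correlated at 0.16, 0.06 and 0.09 in their deviations from the group means, and each library correlated best with its own number. Whether the numbers tie libraries together was not tested. With the replicate number as a block, 247 of 19611 genes were called higher and 108 lower. Among those called higher were 5 of the 37 members (ATP6V0D2, ATP6V0B, ATP6V1F, ATP6V1H and LAMTOR1). Of the 59 partners tested 1 was called, TFE3. The V0 median without ethacrynic acid replicate 3 came to 0.61. The median level per kilobase in the control was 11.8 CPM by merged exon length and 20.2 CPM by the longest coding transcript, and the order of the members by the 2 lengths had a Spearman's rho of 0.92. ATP6V0D2 had 11 to 19 counts in the control libraries, and its call held with counts divided by 4 (adjusted p = 0.026).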
